A study of Homo sapiens with 6 samples.

Results

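The genes described here sense DNA double-strand breaks and mark the chromatin around them: ATM, MRE11, RAD50, NBN, H2AX, MDC1, RNF8, RNF168 and TP53BP1. Arrays measured their mRNA in cells of the established human glioblastoma line U87. In 3 samples the microRNA miR-151a was overexpressed, and 3 control samples overexpressed the negative control microRNA miR-NC. No DNA-damaging treatment is named in the labels for either group. The sources used here give neither the arm of miR-151a that was raised nor the means or duration of the overexpression. The 9 genes were represented by 30 of 49293 probe sets (an array feature that reads 1 transcript or a group of transcripts), namely all those whose annotation names 1 of these genes and no other. There were 5 probe sets each for ATM, MRE11 and NBN, 4 each for MDC1 and TP53BP1, 3 for RAD50, 2 for RNF8 and 1 each for H2AX and RNF168.

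When both DNA strands break, the complex of MRE11, RAD50 and NBN binds the ends and activates the kinase ATM. ATM phosphorylates the histone variant H2AX along the flanking chromatin, and MDC1 binds this mark and recruits the ubiquitin ligases RNF8 and then RNF168. The ubiquitin they place on histones brings in TP53BP1, a scaffold that limits end resection and favours end joining. Much of this cascade works through modification of proteins already present, which mRNA levels do not report.

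The median probe set intensity lay between 57.1 and 58.7 on the 6 arrays, and with values on such a common scale a change shared by most transcripts would go unseen. Pearson correlations over probe sets were 0.9980 to 0.9984 within groups and 0.9956 to 0.9958 between groups. Of 7 glioma and mesenchymal markers, 4 lay above the array median on all 6 arrays (VIM, CD44, NES and, narrowly, GFAP), OLIG2 lay above it on 4 and SOX2 and S100B on 0. Markers of other cell types were mixed. Of 5 immune markers, PTPRC and CD14 lay below the lower quartile on all 6 arrays and CD163 on 5, CD3E lay between that quartile and the median, and CD79A lay above the median on all 6. Of 3 epithelial markers, CDH1 and ESRP1 lay below the lower quartile on all 6 arrays and EPCAM on 0. Of 4 endothelial markers, KDR lay above the median on all 6 arrays, VWF on 1, and PECAM1 and CDH5 on 0. The summed intensity of the immune list was 146 to 170 with miR-151a and 138 to 159 with miR-NC, that of the epithelial list 51.6 to 58.7 with miR-151a and 47.9 to 57.3 with miR-NC, and that of the endothelial list 211 to 219 with miR-151a and 215 to 238 with miR-NC. Their part in the results was not tested. The log2 ratio of the 3′ to the 5′ control probe set for beta-actin averaged 0.29 with miR-151a and 0.40 with miR-NC, and for GAPDH 0.047 with miR-151a and 0.041 with miR-NC. The part of this difference in the results below was not tested. The labels cite a whole-transcript labelling protocol, whereas the probe set names follow the style of arrays read from the 3′ end, so which labelling was used is not settled and the ratios cannot be read as a measure of RNA integrity. The labels do not state whether the replicates were independent cultures, so the p-values rest on a spread that could be technical only. The cells were profiled in bulk, so fewer cells with a transcript and less of it per cell cannot be told apart.

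With miR-151a, TP53BP1 mRNA was higher and H2AX and MDC1 mRNA were lower. The H2AX call rested on its only probe set and was lost in 3 of 14 alternative gene fits. The MDC1 call rested on 1 of 4 probe sets and was lost in 7 of 14 alternative gene fits. ATM fell by 1 of 5 probe sets, not its brightest, with all 5 below 0. Of the end-binding subunits, NBN had 2 probe sets that rose and 3 that did not pass, on both sides of 0, while 0 of 5 probe sets of MRE11 (all below 0) and 0 of 3 of RAD50 (all above 0) passed. Neither ligase gene passed the test. Values are given as log2(intensity + 1), and a call means a Benjamini-Hochberg adjusted p under 0.05 in limma over all probe sets. Of the 30 probe sets, 5 rose, where 6.81% of all probe sets rose, and 3 fell, where 7.27% of all fell. The 5 that rose belonged to TP53BP1 and NBN, and the 3 that fell belonged to ATM, H2AX and MDC1, so the 8 calls came from 5 genes, against 14.1% of all probe sets called, and probe sets of 1 gene are not independent. When each gene was represented by its brightest probe set, 1 gene rose and 2 fell, or 33.3% of 9 genes; of all 18132 genes 15.4% passed, 7.27% as higher and 8.11% as lower. With so few genes the share by itself says little, and no test of the list was made. The 9 genes were chosen with earlier results of these data known, so none of these shares, nor those that follow, can be read as an excess. The groups did not overlap for 12 of the 30 probe sets (40.0%), against 33.8% of all probe sets, and for 4 of the 9 genes, against 34.5% of all genes. No probe set of the 9 genes changed by 2-fold or more: the log2 fold changes ran from -0.30 to 0.34, with a median of -0.06 beside -0.01 over all probe sets.

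**Figure D1:**
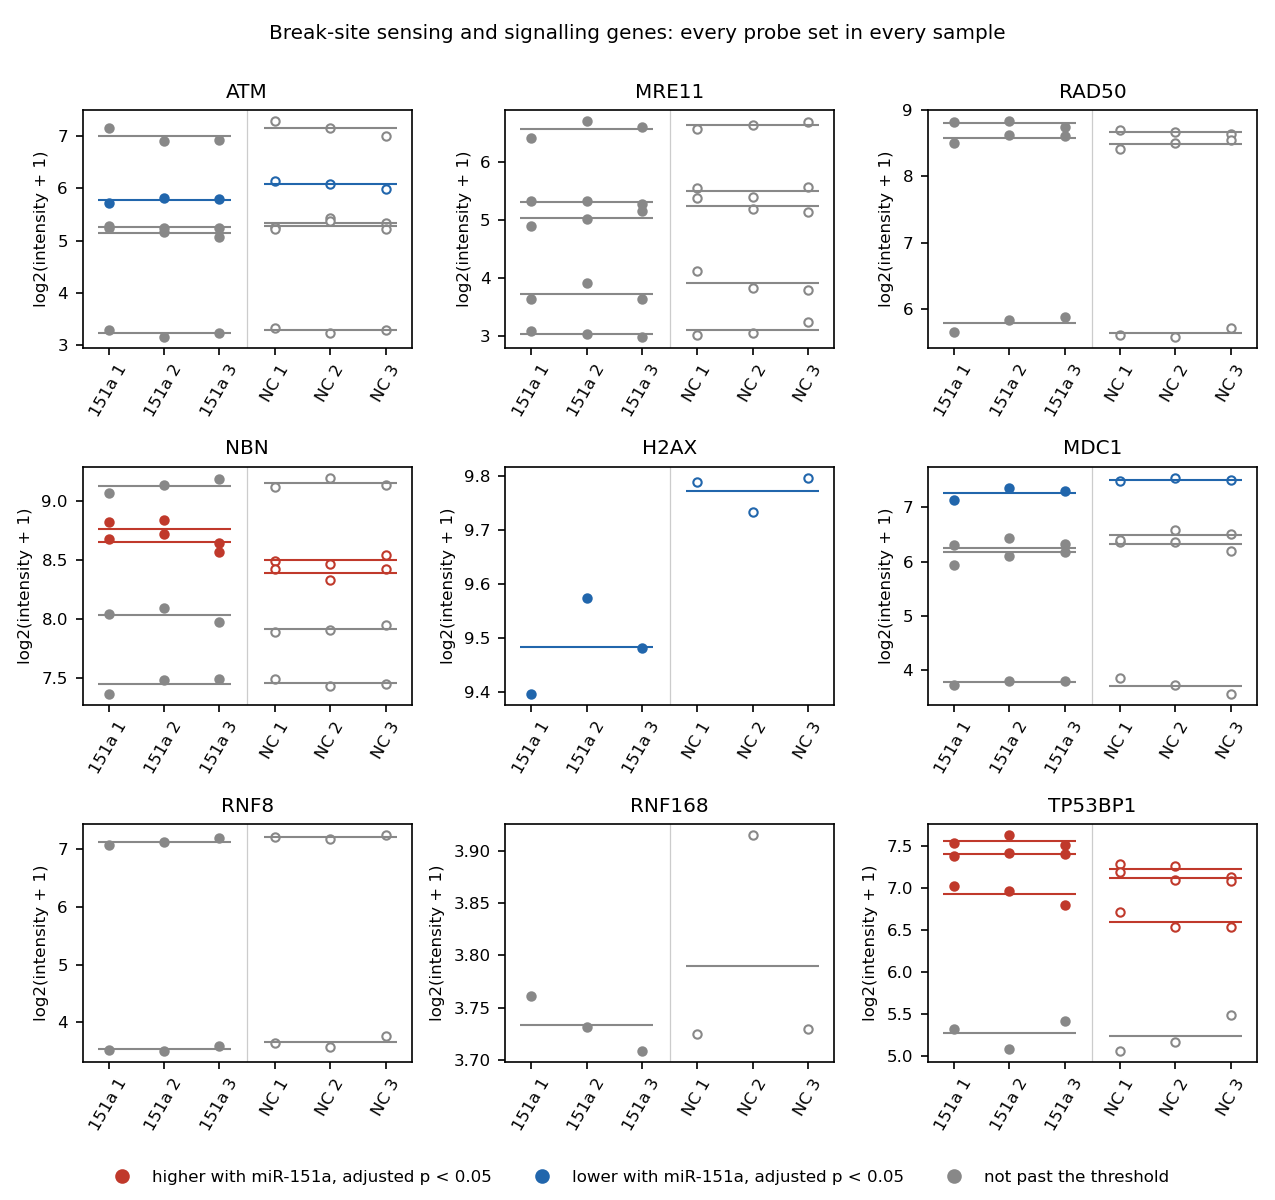
Each panel shows 1 gene, with log2(intensity + 1) on a vertical axis of its own range, the 3 miR-151a samples as filled points on the left and the 3 miR-NC samples as open points on the right; horizontal lines are group means of a probe set. TP53BP1 has 3 probe sets whose miR-151a points all lie above the miR-NC points, and the single H2AX probe set has its 3 miR-151a points below the 3 miR-NC points.

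TP53BP1 had the smallest adjusted p among the members and encodes 53BP1, the scaffold that reads ubiquitinated and methylated nucleosomes at breaks. Its brightest probe set, 11735725_x_at, gave 7.54, 7.64 and 7.51 with miR-151a, against 7.29, 7.26 and 7.13 with miR-NC. All 3 miR-151a samples were above all 3 miR-NC samples. The level rose by 26.0%, which corresponds to a log2 fold change of 0.33 ± 0.06 (standard error; 95% interval 0.19 to 0.48; limma adjusted p = 0.011).

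A second probe set of TP53BP1, 11718808_a_at, gave 7.38, 7.42 and 7.41 with miR-151a, against 7.19, 7.09 and 7.08 with miR-NC. Its log2 fold change was 0.28 (95% interval 0.16 to 0.40, adjusted p = 0.010), and its groups were also separate. The third, 11735724_a_at, gave 7.03, 6.97 and 6.79 with miR-151a and 6.71, 6.53 and 6.54 with miR-NC, a log2 fold change of 0.34 (adjusted p = 0.027). The probe sets 11735725_x_at and 11735724_a_at were designed on the same source sequence and are not independent readings. The fourth and dimmest, 11759995_at, gave 5.32, 5.08 and 5.42 with miR-151a and 5.06, 5.16 and 5.49 with miR-NC, overlapping groups with a log2 fold change of 0.03 and an interval from -0.25 to 0.32. The rise of the 2 brightest probe sets passed under every alternative setting tried, with adjusted p of at most 0.043. That of 11735724_a_at did not pass without miR-151a replicate 1 (0.084) or 2 (0.078) or without miR-NC replicate 2 (0.084) or 3 (0.084).

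The sequences around the transcription start of TP53BP1 and of the 2 genes whose brightest probe set fell, H2AX and MDC1, are shown so that the promoters of members that moved in opposite directions can be read side by side. They come from RefSeq on GRCh38.p14, run 5′ to 3′ along the gene's strand, and cover 250 bases before to 50 bases after the annotated start. TP53BP1 is at chr15:43510591-43510890, H2AX at chr11:119095416-119095715 and MDC1 at chr6:30717232-30717531, all on the minus strand. Capitals mark the CCAAT box, CCAAT or its reverse complement ATTGG.
TP53BP1: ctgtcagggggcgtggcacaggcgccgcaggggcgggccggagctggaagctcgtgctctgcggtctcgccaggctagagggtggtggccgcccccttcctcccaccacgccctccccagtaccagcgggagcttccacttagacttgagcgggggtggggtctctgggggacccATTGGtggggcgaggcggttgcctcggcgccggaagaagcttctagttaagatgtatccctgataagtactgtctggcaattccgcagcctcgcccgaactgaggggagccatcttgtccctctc
H2AX: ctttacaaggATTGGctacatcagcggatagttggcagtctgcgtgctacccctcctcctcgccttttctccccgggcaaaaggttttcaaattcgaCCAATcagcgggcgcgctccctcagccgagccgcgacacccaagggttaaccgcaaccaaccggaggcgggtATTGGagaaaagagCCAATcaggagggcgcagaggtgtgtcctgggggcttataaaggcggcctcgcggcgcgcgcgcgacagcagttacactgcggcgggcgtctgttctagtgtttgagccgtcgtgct
MDC1: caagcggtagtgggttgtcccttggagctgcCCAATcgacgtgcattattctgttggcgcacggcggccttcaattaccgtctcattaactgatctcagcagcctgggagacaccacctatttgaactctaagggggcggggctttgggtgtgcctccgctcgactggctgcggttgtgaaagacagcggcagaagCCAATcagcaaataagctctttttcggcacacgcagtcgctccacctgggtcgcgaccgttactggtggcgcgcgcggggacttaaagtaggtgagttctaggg
The H2AX window held 4 CCAAT boxes, the MDC1 window 2 and the TP53BP1 window 1. Among other members whose windows were read, MRE11 held 2 such boxes, RNF8 held 1, and RAD50 and RNF168 held 0. ATM, with 1 probe set called lower, held 1 and 2 in its windows. A link between this count and the direction of change was not tested. Of 35116 RefSeq windows of the same length, 34.6% held at least 1, 10.8% at least 2 and 0.991% at least 4. An E2F site written as TTTCCCGC, TTTCGCGC, TTTGCCGC or TTTGGCGC, an ETS site written as CCGGAAGT and a cyclic AMP response element written as TGACGTCA were searched on both strands, and these letters did not occur in the 3 windows. They occur in 3.31%, 4.14% and 1.85% of all windows. The ETS letters did occur in the windows of RAD50, MRE11 and RNF168. A match is a description of the letters and not a bound site.

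H2AX encodes the histone H2A variant whose phosphorylated tail is the primary mark of a break. It was read by 1 probe set, 11754243_a_at, which gave 9.40, 9.57 and 9.48 with miR-151a, against 9.79, 9.73 and 9.80 with miR-NC. The 3 miR-151a samples were all below the 3 miR-NC samples. The mean intensity was 716 ± 44.1 with miR-151a, against 874 ± 21.0 with miR-NC (SD, n = 3 each). The level fell by 18.1%, a log2 fold change of -0.29 (95% interval -0.42 to -0.15, limma adjusted p = 0.016). The direction was the same under every alternative tried, at -0.33 to -0.24. The adjusted p was 0.051 when miR-151a replicate 3 was left out, and 0.057 when either of miR-NC replicates 1 and 3 was. With a replicate block in the limma fit it was 0.052.

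MDC1 encodes the adaptor that binds phosphorylated H2AX. Its brightest probe set, 11758138_s_at, gave 7.14, 7.36 and 7.31 with miR-151a, against 7.48, 7.55 and 7.51 with miR-NC. The groups did not overlap, and the level fell by 15.4% (log2 fold change -0.24, 95% interval -0.39 to -0.09, limma adjusted p = 0.044). The next brightest, 11748405_a_at, had a log2 fold change of almost the same size, -0.24, also with separate groups, but its replicates were more widely spread and it did not pass (6.31, 6.10 and 6.32 with miR-151a, 6.36, 6.59 and 6.51 with miR-NC; adjusted p = 0.094). It passed with a variance trend and robust fit (0.033). The remaining probe sets were at -0.14 for 11751800_a_at and 0.06 for 11748150_a_at, the second under the lower quartile on all 6 arrays, and both had overlapping groups. The value of 11751800_a_at was -0.02 without miR-151a replicate 1 and -0.26 without miR-151a replicate 2. The MDC1 call had the highest adjusted p of the 8. It was 0.046 without miR-151a replicate 2, but 0.088 and 0.080 when miR-151a replicates 1 and 3 were left out, and 0.091, 0.13 and 0.10 when miR-NC replicates 1, 2 and 3 were. Averaged over the 4 probe sets, MDC1 was at -0.14 and did not pass among genes (adjusted p = 0.11).

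**Figure D2:**
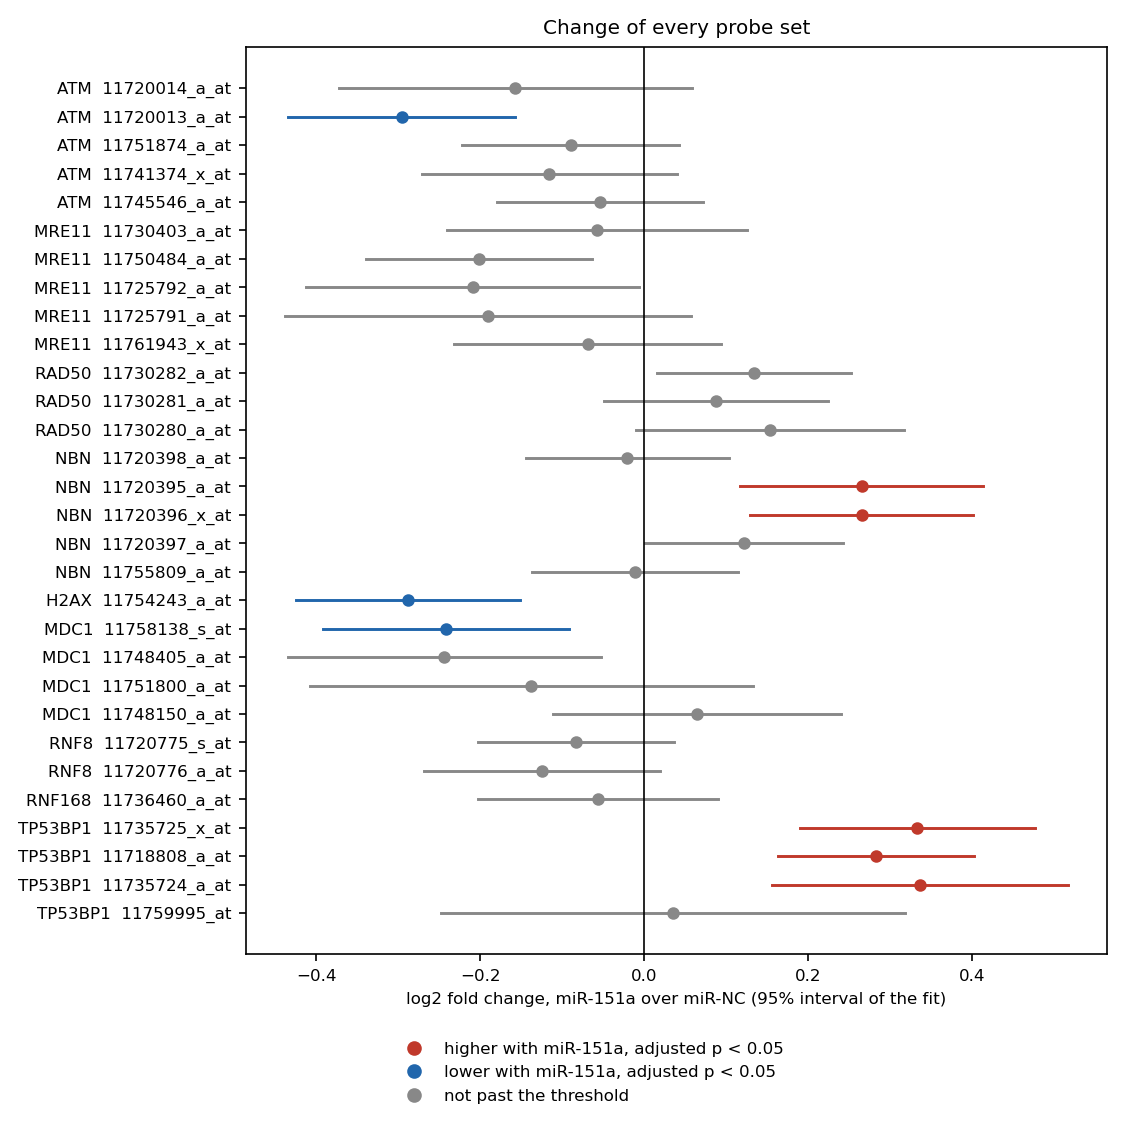
The horizontal axis gives the log2 fold change of miR-151a over miR-NC for each of the 30 probe sets, brightest first within a gene, with lines for the 95% interval of the limma fit. All 5 ATM and all 5 MRE11 estimates lie below 0, all 3 RAD50 and all 4 TP53BP1 estimates lie above it, and NBN lies on both sides, from -0.02 to 0.27.

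NBN, also called NBS1, is the regulatory subunit that ties the end-binding complex to ATM, and its probe sets disagreed. The brightest, 11720398_a_at, gave 9.06, 9.14 and 9.18 with miR-151a and 9.12, 9.19 and 9.14 with miR-NC. These groups overlapped, and the log2 fold change was -0.02 with an interval from -0.14 to 0.10. In contrast, 11720395_a_at gave 8.82, 8.83 and 8.64 with miR-151a, against 8.49, 8.47 and 8.54 with miR-NC, a rise of 20.2% (log2 fold change 0.27, 95% interval 0.12 to 0.41, limma adjusted p = 0.030).

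The probe set 11720396_x_at, designed on the same source sequence as 11720395_a_at, gave 8.68, 8.72 and 8.57 with miR-151a and 8.42, 8.33 and 8.42 with miR-NC, and also had a log2 fold change of 0.27 (adjusted p = 0.022). These 2 probe sets are therefore 1 reading of NBN rather than a pair. Another probe set, 11720397_a_at, was at 0.12 with groups that did not overlap (adjusted p = 0.18), and 11755809_a_at was at -0.01 with an interval from -0.14 to 0.11. Whether the probe sets read different NBN transcripts was not tested. Of the fits that left out 1 sample, both rises passed only in the one without miR-151a replicate 3. In the other such fits the adjusted p ran up to 0.095 for 11720395_a_at (0.090 and 0.088 leaving out miR-151a replicates 1 and 2, and 0.087, 0.095 and 0.062 leaving out miR-NC replicates 1, 2 and 3) and up to 0.080 for 11720396_x_at (0.067, 0.068, 0.056, 0.080 and 0.051).

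RAD50, the coiled-coil ATPase that tethers the ends, had 3 probe sets with log2 fold changes of 0.13, 0.09 and 0.15, and 0 of them passed. The brightest, 11730282_a_at, gave 8.83, 8.84 and 8.74 with miR-151a, against 8.70, 8.67 and 8.63 with miR-NC. Its groups did not overlap, and its 95% interval of 0.02 to 0.25 lay above 0, with an adjusted p of 0.13 in limma. It passed with a pseudocount of 32 (0.037) and with a variance trend and robust fit (0.032). The other two, 11730281_a_at and 11730280_a_at, had adjusted p of 0.39 and 0.21.

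MRE11, the nuclease of the complex, had 5 probe sets with log2 fold changes between -0.21 and -0.06, of which 0 passed. The brightest, 11730403_a_at, gave 6.41, 6.70 and 6.60 with miR-151a and 6.57, 6.64 and 6.68 with miR-NC, overlapping groups with a log2 fold change of -0.06 and an interval from -0.24 to 0.13. The nearest to the threshold was 11750484_a_at, at 5.32, 5.33 and 5.27 with miR-151a, against 5.55, 5.40 and 5.57 with miR-NC. Its groups did not overlap, the log2 fold change was -0.20 (95% interval -0.34 to -0.06) and the adjusted p was 0.062 in limma. It passed with a pseudocount of 32 (0.045), with dim probe sets left out (0.039) and without miR-NC replicate 2 (0.042). The dimmest MRE11 probe set, 11761943_x_at, shares its source sequence with 11750484_a_at and gave -0.07 (interval -0.23 to 0.09) at a level below the lower quartile of every array.

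The subunits MRE11, RAD50 and NBN work as 1 complex, so the log2 ratio of their brightest probe sets was compared between groups. For MRE11 over RAD50 this ratio was -2.42, -2.13 and -2.14 with miR-151a and -2.13, -2.03 and -1.95 with miR-NC. All 3 miR-151a values were the lower ones, by a narrow gap, with a mean difference of -0.19, or -0.10 without miR-151a replicate 1. The two-sided exact permutation p was 0.1, the smallest that 3 samples against 3 allow, and 0.3 after Benjamini-Hochberg adjustment over the 3 pairs. RAD50 over NBN differed by 0.15 and MRE11 over NBN by -0.04, with exact p of 0.2 and 0.6 and adjusted p of 0.3 and 0.6. Both of these ratios rest on the NBN probe set at -0.02, whereas 11720395_a_at and 11720396_x_at had log2 fold changes of 0.27. Ratios with other probe sets were not computed, so the direction of the NBN ratios is not settled. A ratio between probe sets does not give the proportion of the transcripts, and here it serves only to compare the groups.

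ATM, the kinase at the head of the cascade, had 5 probe sets that all lay below 0, with log2 fold changes from -0.30 to -0.05, and 1 of them passed. That probe set, 11720013_a_at, gave 5.71, 5.82 and 5.80 with miR-151a, against 6.14, 6.09 and 5.99 with miR-NC. The groups did not overlap and the level fell by 18.5% (95% interval of the log2 fold change -0.43 to -0.16, limma adjusted p = 0.016). Leaving out miR-151a replicate 1 gave an adjusted p of 0.051, and leaving out miR-NC replicates 1 and 2 gave 0.057 and 0.054. The brightest ATM probe set, 11720014_a_at, gave 7.15, 6.90 and 6.92 with miR-151a and 7.29, 7.16 and 7.00 with miR-NC; its groups overlapped, and its log2 fold change of -0.16 had an interval from -0.37 to 0.06 (adjusted p = 0.33). The other three, 11751874_a_at, 11741374_x_at and 11745546_a_at, were at -0.09, -0.12 and -0.05, with overlapping groups.

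The ligase genes gave no call. RNF8, which starts the ubiquitin signal after binding phosphorylated MDC1, had a brightest probe set, 11720775_s_at, at 7.07, 7.11 and 7.18 with miR-151a and 7.20, 7.17 and 7.24 with miR-NC. The groups overlapped slightly, and the log2 fold change was -0.08 with an interval from -0.20 to 0.04 (adjusted p = 0.35). The dim 11720776_a_at was at -0.12 (interval -0.27 to 0.02, adjusted p = 0.24). RNF168, which extends the ubiquitin signal on H2A-type histones, was read by 1 probe set, 11736460_a_at, at 3.76, 3.73 and 3.71 with miR-151a and 3.72, 3.92 and 3.73 with miR-NC. This is below the lower quartile of every array, where a change in the transcript may not show, and the log2 fold change was -0.06 (interval -0.20 to 0.09). Over the 22 probe sets of the 9 genes that did not pass, the 95% intervals reached no further than -0.44 and 0.32.

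**Figure D3:**
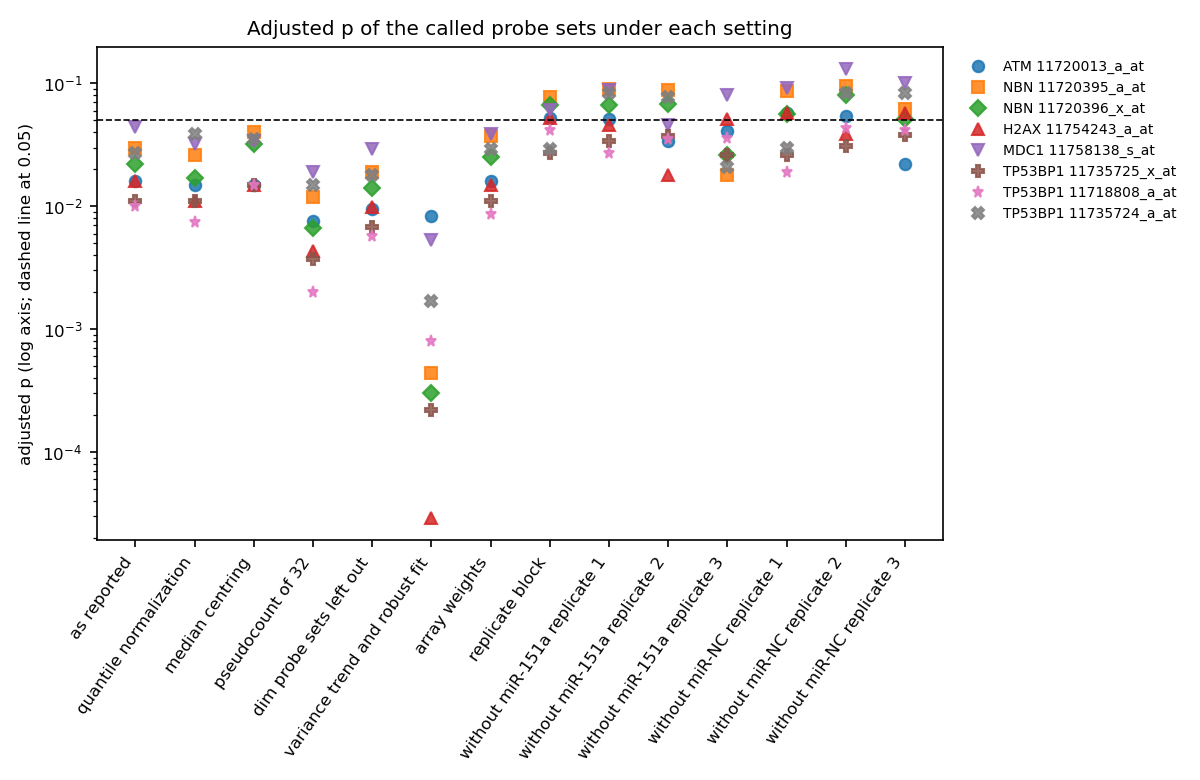
The vertical axis gives the limma adjusted p on a log scale for the 8 called probe sets under each setting named on the horizontal axis, and the dashed line marks the threshold of 0.05. The TP53BP1 probe sets 11735725_x_at and 11718808_a_at stay below the line throughout, while the others cross it in some fits that leave out 1 sample.

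For each of the 3 genes called by its brightest probe set, the genes with the most similar profile were those with the smallest Euclidean distance over the 6 samples between values centred on their own mean, among 18132 genes. For TP53BP1 these were DZIP3 (distance 0.0557, log2 fold change 0.33) and METTL25B (0.0678, 0.29). For H2AX they were ATL3 (0.0245, -0.30) and PTN (0.0311, -0.26), and for MDC1 they were ITGB3BP (0.0379, -0.23) and WDR54 (0.0478, -0.24). With 2 groups of 3 samples this likeness mostly repeats the difference between the groups.

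Other genes that act with these 9 at breaks were examined from 5 lists with 54 entries, of which 50 were measured. Of the 50, 7 rose and 2 fell by their brightest probe set, with a median log2 fold change of -0.02 beside -0.01 over all genes. These counts amount to 18.0% called, near the 15.4% of all genes. The lists, too, were chosen with earlier results of these data known. The 7 rises dropped to 4 when miR-151a replicate 2 or either of miR-NC replicates 1 and 2 was left out. The 2 falls dropped to 1 when miR-151a replicate 1 or any 1 of the 3 control samples was left out. Calls over all probe sets also dropped in these fits, from 6940 to between 4082 and 4805.

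Among phosphatases and chromatin modifiers that act on H2AX or its surroundings, 2 of 12 rose and 0 fell. That is 16.7% called, near the 15.4% of all genes. PPM1D, the p53-induced phosphatase also called WIP1 that reverses ATM signalling and dephosphorylates H2AX, gave 7.11, 7.20 and 7.12 with miR-151a, against 6.61, 6.91 and 6.76 with miR-NC. Its groups did not overlap, and the level rose by 30.6% (log2 fold change 0.39, 95% interval 0.21 to 0.56, limma adjusted p = 0.014). All 4 probe sets of PPM1D rose, by 0.33 to 0.51 on the log2 scale. PPP4R2, a regulatory subunit of the protein phosphatase that dephosphorylates H2AX, rose by 22.1% by its brightest probe set (adjusted p = 0.0098), 1 of 3 to pass. The 3 ran from 0.0048 to 0.29 on the log2 scale. The catalytic subunit gene PPP4C, named after its value was seen, was at 0.03 with an interval from -0.07 to 0.13.

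Of 15 ubiquitin and SUMO pathway genes, 3 rose and 1 fell. That is 26.7% called, beside 15.4% of all genes, and with 15 genes the share says little. HERC2, a large ligase that assists RNF8, gave 7.76, 7.87 and 7.87 with miR-151a, against 8.11, 8.09 and 8.13 with miR-NC, and fell by 17.4% (limma adjusted p = 0.0088). USP3, a deubiquitinase that removes ubiquitin from histone H2A, rose by 18.4% (adjusted p = 0.014), and TRIP12, a ligase that restrains the amount of RNF168 protein, rose by 13.9% (adjusted p = 0.030). L3MBTL1, a reader of methylated histone H4, rose by 17.8% (adjusted p = 0.043) and was named after its value was seen. For each of these 4 genes 1 of 2 probe sets passed, and the second probe sets were at -0.18, 0.06, 0.22 and -0.03 for HERC2, USP3, TRIP12 and L3MBTL1.

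The remaining lists held 3 calls. Among 10 genes of TP53BP1 effectors and histone H4 methylation, 1 rose and 0 fell (10.0% called, beside 15.4% of all genes). This was KMT5B, a methyltransferase that places the histone H4 mark to which TP53BP1 binds, at 7.68, 7.77 and 7.76 with miR-151a, against 7.40, 7.45 and 7.39 with miR-NC (log2 fold change 0.32, limma adjusted p = 0.0040). Of its 6 probe sets 2 rose, and the 6 ran from -0.16 to 0.34. Among 6 genes listed under the MRE11 complex and ATM activation, 1 rose and 0 fell (16.7% called, beside 15.4% of all genes). The gene that rose was MRNIP, a partner of that complex, by 19.3% (adjusted p = 0.016). Of its 3 probe sets 1 passed, and the 3 ran from 0.03 to 0.25. Among 7 genes of the complex that reads a particular kind of lysine-linked ubiquitin chain, 1 fell and 0 rose (14.3% called, beside 15.4% of all genes). BARD1, a ligase subunit that binds ubiquitinated nucleosomes, fell by 13.8% by its only probe set (adjusted p = 0.028). BRCA1 and BRCC3, named after their values were seen, did not pass by their brightest probe sets. Each had 1 probe set called lower, of 5 for BRCA1 and 6 for BRCC3. No gene of this list had a probe set called higher.

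**Figure D4:**
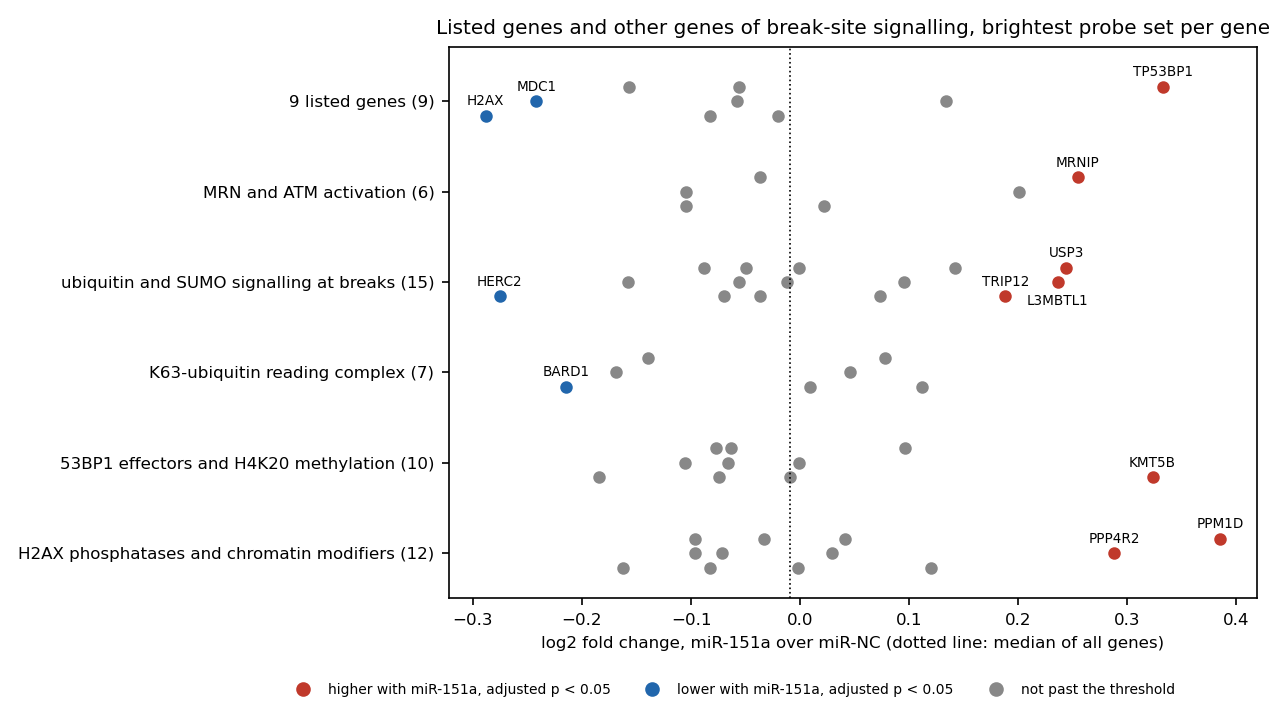
The horizontal axis gives the log2 fold change of miR-151a over miR-NC for the brightest probe set of each gene, with the 9 listed genes in the top row and 5 lists of other break-site genes below, the number measured in brackets, and a dotted line at the median of all genes. Genes past the threshold are named; vertical offsets within a row only separate points. Called genes lie on both sides in the top row and in the ubiquitin row.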

How the data were processed

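RNA from 6 samples of U87 cells was hybridised to 1-colour biotin arrays. The deposited file gives a linear intensity for each of 49395 probe sets in every sample. MAS5 is listed in the submitters' processing notes without version or role, and the background correction, summarization and scaling are otherwise unstated. Sample titles supplied groups and replicate numbers. The 102 control probe sets were removed, and log2(intensity + 1), which understates changes of dim genes, was fitted by group alone in limma 3.58.1 (lmFit, eBayes; R 4.3.3), p-values being adjusted by Benjamini-Hochberg across every probe set, or every gene. A gene was represented by its brightest probe set by mean log2 value. Of 44988 probe sets that named 1 gene, 44961 were matched through Entrez identifiers to RefSeq (GRCh38.p14), which updated symbols; 0 probe sets named a listed gene together with another. The fit was also run on simulated data with independent noise, a simpler setting that does not check the calls made here. The 9 genes and the pathway lists were chosen with earlier results of these data known. From each pathway list, up to 3 genes past the threshold were named by smallest p. Probe sets ending in _x_at (4 here) or _s_at (2) may also bind other transcripts. Ratios between subunits were tested in scipy 1.17.1. The number of arrays limits the precision. Other settings tried were quantile or median scaling, a pseudocount of 32, a filter at the 0.25 quantile of level, a robust variance trend, array weights, a replicate block, averaging of probe sets, and omission of each sample.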

Additional observations from a re-analysis of the deposited data

How the results depend on the processing

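The TP53BP1 rise held its call in all 14 alternative gene fits, at 0.25 to 0.36 on the log2 scale; H2AX held its direction in all 14 and its call in 11, and MDC1 its direction in 14 and its call in 7. Omitting 1 sample gave 1 higher gene of the 9 each time and 0 to 2 lower ones, 2 to 5 higher and 0 to 3 lower probe sets, and 4 to 6 higher and 1 to 2 lower pathway genes. A pseudocount of 32 and a robust variance trend each made RAD50 pass too, for 2 higher genes, and the trend gave 6 lower pathway genes. Averaging probe sets gave 1 lower gene of the 9 and 4 higher and 5 lower pathway genes, and NBN was then at 0.12 (adjusted p = 0.067) in place of -0.02. With the replicate block 0 of the 9 genes and 0 of their probe sets were lower, 3 probe sets were higher, and 4 pathway genes were higher and 1 lower; deviations of samples with the same number correlated at -0.08, -0.12 and 0.07, so the numbers were not taken as pairs. Calls over all probe sets moved as well, from 6940 to 9881 with the pseudocount of 32 and to 10649 with the robust trend. They fell to 4378 with the replicate block and to between 4082 and 4805 with 1 sample omitted. The cause of these moves was not tested, and the fits that omitted 1 sample also had fewer samples than the others. Signs turned only where an estimate near 0 had not passed. With 1 sample omitted, MRE11 (11730403_a_at) ran from -0.12 to 0.024, 11761943_x_at from -0.11 to 0.0033, NBN (11720398_a_at) from -0.048 to 0.011, 11755809_a_at from -0.033 to 0.029 (0.0008 with array weights), the MDC1 probe set 11748150_a_at from -0.012 to 0.13, RNF168 from -0.089 to 0.0064, the TP53BP1 probe set 11759995_at from -0.055 to 0.16, and the MRE11 over NBN ratio from -0.10 to 0.013. The dimmest probe sets, 5 of them below the lower quartile on all arrays, limit what can be said of RNF168 and of the second RNF8 probe set.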
